A study of Mus musculus with 32 samples.

Results

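The probe sets described here report HMGA and IGF2BP family genes and Lin28b, that is, chromatin and RNA-binding proteins tied to the LIN28/let-7 axis. A probe set was taken when the array annotation gave it exactly 1 gene symbol and that symbol was Hmga1, Hmga2, Lin28b, Igf2bp1, Igf2bp2 or Igf2bp3. This gave 15 of 34945 probe sets with 1 symbol, for 4 of the 6 genes (of 18193 genes with such a probe set), namely 4 for Hmga2, 4 for Igf2bp1, 6 for Igf2bp3 and 1 for Lin28b. Hmga1 and Igf2bp2 were not analysed here. NMuMG is a normal murine mammary gland epithelial line, and E1KD (previously termed SH14) is its derivative in which hnRNP E1 is knocked down. Total, polysomal and monosomal (40S, 60S and 80S) RNA was measured in E1KD cells and in NMuMG cells, each with TGFβ2 (5 ng/ml, 24 h) and untreated, on 24 Affymetrix mouse expression arrays. In NMuMG cells alone, RNA bound to α-hnRNP E1 and to control IgG was measured with and without TGFβ on another 8 arrays. Each of the 16 conditions had 2 arrays. The labels call these biological replicates without naming separate cultures, and p-values measure the spread between them.

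HMGA2 is a small protein with AT-hooks that bends DNA and opens chromatin. It is abundant in embryonic and many transformed cells, and in mammary epithelial cells it is known as a TGFβ/Smad-induced regulator of Snail and Twist expression in epithelial to mesenchymal transition (EMT). LIN28B is an RNA-binding protein that blocks maturation of let-7, a microRNA family that represses Hmga2, Lin28b and the Igf2bp mRNAs through sites in their 3′ untranslated regions. The IGF2BP (or IMP) proteins bind mRNAs such as Myc and Igf2 in the cytoplasm and govern their stability, localization and translation. The arrays carried no let-7 level that is analysed here. The shared seed of the family is shown because it is the stretch through which these microRNAs pair with the mRNAs described. It occurs in 10 of 11 mature let-7 sequences selected from RefSeq (GRCm38). The selection left out forms from the opposite arm of the precursor and entries on a chromosome that was set aside. Seed bases 2 to 8 are in capitals, read 5′ to 3′.
let-7a-5p: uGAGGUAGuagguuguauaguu
let-7g-5p: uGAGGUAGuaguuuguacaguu
miR-98-5p: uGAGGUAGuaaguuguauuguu
let-7j: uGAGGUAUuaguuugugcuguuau
The first is encoded on the minus strand at chr13:48538239-48538260 (Mirlet7a-1), let-7g-5p on the plus strand at chr9:106178846-106178867, and miR-98-5p on the plus strand at chrX:151913229-151913250. let-7j, encoded on the plus strand at chr3:140028281-140028304, is the sequence whose seed differs, GAGGUAU against GAGGUAG in the other 10.

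A probe set was tested when its log2 value exceeded 5.52, which is the median over the whole table, on 8 or more of 32 arrays. This kept 25432 probe sets, 13 of them for the genes described, and left out 1446196_at of Hmga2 and the Lin28b probe set. Differences were tested with limma, and a difference is said to have passed when its p, adjusted by Benjamini-Hochberg over all probe sets tested, was under 0.05. Pcbp1, which encodes hnRNP E1, lay at 9.33 to 10.86 (log2) in total RNA of E1KD cells, against 13.08 to 13.14 in NMuMG cells. Within E1KD cells it read 9.55 and 9.33 with TGFβ, against 10.79 and 10.86 untreated, so the Pcbp1 level differed by treatment there. The part of this Pcbp1 difference in the TGFβ differences of E1KD cells below was not tested. In untreated total RNA 17.8% of all genes were higher and 15.1% lower in E1KD than in NMuMG cells. Of 12 epithelial markers tested, 7 were lower and none higher there, and of 11 mesenchymal markers 9 were higher and none lower. The mean level of those 11 markers ran from 10.41 to 10.47 in untreated E1KD arrays and from 9.01 to 9.04 in untreated NMuMG arrays, while that of the 12 epithelial markers was 9.56 to 9.62 in untreated E1KD arrays and 10.35 to 10.38 in untreated NMuMG arrays. Of 6 macrophage markers Ptprc, which defines leukocytes, stayed at 3.40 to 4.35 in all 24 arrays, while Cd68, Csf1r and Cd14 passed the filter. Of these 3, 1 was higher and 2 were lower in untreated E1KD than in NMuMG total RNA. After TGFβ in E1KD total RNA 2 were higher and 1 lower, beside 11.7% and 11.4% of all genes. The part of these marker differences in the differences between cell lines below was not tested, and in bulk RNA fewer cells with a transcript and less of it per cell cannot be told apart.

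The first question was whether the total level of these mRNAs differed with TGFβ and between E1KD and NMuMG cells. Hmga2 was lower in E1KD cells, and TGFβ raised it there while no change passed in NMuMG cells. The probe set of highest mean, 1450781_at, read 12.05 and 11.93 in total RNA of TGFβ-treated E1KD cells, against 11.18 and 10.95 in untreated E1KD cells. It read 12.54 and 12.49 in TGFβ-treated NMuMG cells, against 12.69 and 12.61 in untreated NMuMG cells. The E1KD arrays with and without TGFβ did not overlap, and all 4 E1KD arrays lay below all 4 NMuMG arrays. After TGFβ the signal in E1KD cells was 1.90-fold that without (log2 difference 0.92, standard error 0.19, adjusted p = 0.00189). The 2 other tested probe sets of Hmga2, 1422851_at and 1450780_s_at, gave 0.97 (adjusted p = 3.4e-06) and 0.88 (adjusted p = 8.41e-06). All 3 were designed from 1 mRNA record and are not independent measurements, and the endings _s_at and _x_at mark probe sets that can match related transcripts.

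In NMuMG cells the TGFβ differences of the 3 Hmga2 probe sets in total RNA were -0.14, 0.03 and -0.06 on the log2 scale. The half-widths of their 95% intervals were 0.40 at 1450781_at and 0.21 at both others. None of the 13 probe sets passed in NMuMG total RNA, where 5.43% of all probe sets did, and none had an unadjusted p under 0.05. In E1KD total RNA 5 of the 13 rose and 1 fell, where 11.4% of all probe sets rose and 9.75% fell. The TGFβ difference in E1KD less that in NMuMG cells was itself tested, and 3 of the 13 passed as higher, all of them Hmga2 (5.76% of all probe sets passed as higher). For Hmga2 this difference was 1.06 (standard error 0.26, adjusted p = 0.0147) at 1450781_at and 0.94 at both others (adjusted p = 0.000299 and 0.000284). At 1450781_at the call was lost in 4 of 14 alternatives, each without 1 array, with adjusted p up to 0.0734.

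**Figure D1:**
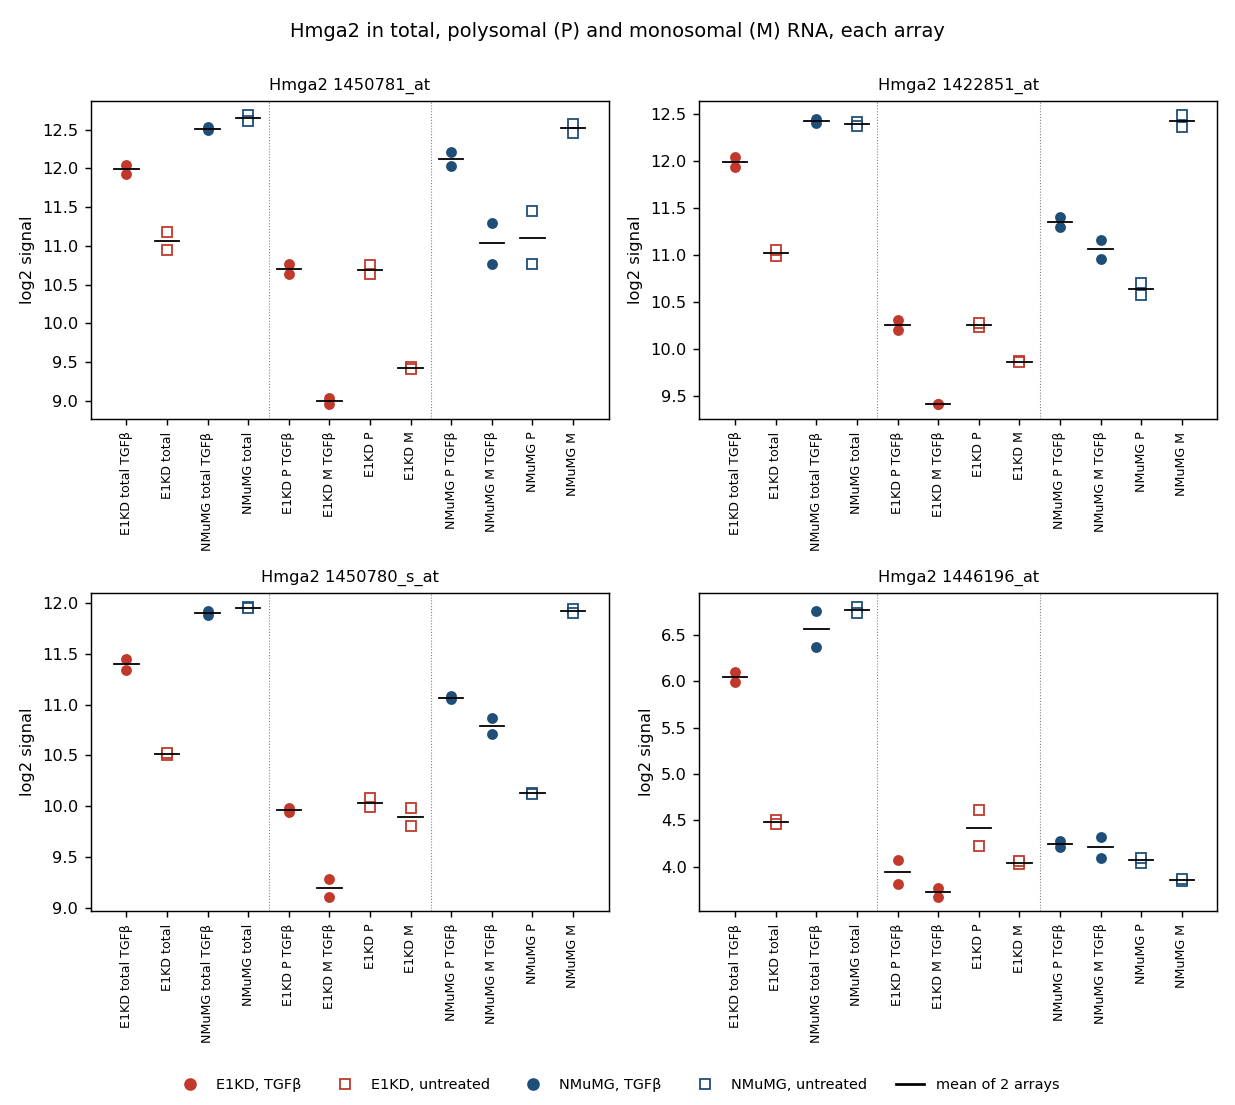
Log2 signal of the 4 Hmga2 probe sets in each of 24 arrays (1 point per array, black bars for the mean of 2), by cell line, RNA pool and treatment. At the first 3 probe sets the untreated monosomal (M) arrays of NMuMG cells lie high and the E1KD monosomal arrays low, and at 1446196_at values above 5.52 occur only in total RNA.

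Hmga2 mRNA was lower in the E1KD line than in its parental line. The arrays compare these lines alone, so the knockdown and other differences between the lines cannot be told apart. In untreated total RNA 1450781_at was 3.0-fold lower in E1KD than in NMuMG cells (log2 difference -1.58, standard error 0.19, adjusted p = 6.28e-06). The others differed by -1.38 and -1.44 (adjusted p = 2.17e-08 and 1.1e-08). With TGFβ on both sides the differences were smaller, at -0.52 (adjusted p = 0.047), -0.44 (adjusted p = 0.00336) and -0.50 (adjusted p = 0.00101). The difference at 1450781_at under TGFβ was lost in 5 of 10 alternatives (adjusted p up to 0.206). Of the 13 probe sets, 6 were lower in untreated E1KD total RNA and 6 were lower with TGFβ, and none was higher in either. Of all probe sets, 13.5% were lower untreated and 12.5% with TGFβ. Without any 1 of the 4 arrays compared the second count was 3 in place of 6.

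The fourth Hmga2 probe set, 1446196_at, has a record of its own and was below the median in most arrays, so it was not tested. In total RNA it read 5.99 and 6.10 in TGFβ-treated E1KD cells, against 4.50 and 4.46 in untreated E1KD cells. In NMuMG total RNA it read 6.37 and 6.76 with TGFβ and 6.80 and 6.74 without. In both ribosomal pools of both lines it stayed between 3.68 and 4.61, and in the immunoprecipitates between 4.07 and 4.71. In total RNA the untreated E1KD arrays were lowest and the treated E1KD arrays next, as at the other Hmga2 probe sets.

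The second question was how the mRNAs were spread between the polysomal (translating) and the monosomal pool. A value in a pool is relative to the other RNAs on the same array, and the amount of RNA in each pool is not in the data. The relative signal of Hmga2 was higher in the monosomal pool of untreated NMuMG cells, while in the other conditions the polysomal minus monosomal difference was positive. In untreated NMuMG cells 1450781_at read 10.76 and 11.45 in the polysomal pool, against 12.58 and 12.46 in the monosomal pool. In TGFβ-treated NMuMG cells it read 12.21 and 12.03 in the polysomal pool, against 11.29 and 10.77 in the monosomal pool. The pools did not overlap in either condition, and their order was opposite.

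In E1KD cells 1450781_at read 10.77 and 10.63 in the polysomal pool with TGFβ, against 9.03 and 8.95 in the monosomal pool. Untreated E1KD cells gave 10.75 and 10.63 in the polysomal pool, against 9.44 and 9.41 in the monosomal pool. The polysomal pool was thus higher in E1KD cells in both treatments. The lowest Hmga2 values of the 24 arrays were those of the E1KD monosomal pool, and the E1KD polysomal means with and without TGFβ differed by 0.01. The polysomal minus monosomal difference was 1.71 in TGFβ-treated and 1.26 in untreated E1KD cells, and 1.09 in TGFβ-treated and -1.42 in untreated NMuMG cells. All 4 passed, with the highest adjusted p, 0.000121, in TGFβ-treated NMuMG cells.

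The other Hmga2 probe sets had the same signs with smaller positive differences. At 1422851_at the difference was 0.84 and 0.39 in treated and untreated E1KD cells and 0.29 and -1.79 in treated and untreated NMuMG cells. At 1450780_s_at it was 0.77 and 0.14 in E1KD cells and 0.28 and -1.80 in NMuMG cells, in the same order. The value of 0.14 in untreated E1KD cells did not pass (adjusted p = 0.283, 95% interval half-width 0.21). The positive differences of these 2 probe sets in TGFβ-treated NMuMG cells (adjusted p = 0.0227 and 0.0289) were lost in 4 and 5 of 10 alternatives.

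The polysome shift of a probe set is its polysomal minus monosomal value with TGFβ, less the same value untreated. As a change of relative signals, the shift does not measure how much RNA moved between the pools. For Hmga2 in NMuMG cells it was 2.50 at 1450781_at, a 5.68-fold change of the ratio (standard error 0.26, adjusted p = 5.13e-07). The others shifted by 2.08 and 2.07 (adjusted p = 5.71e-09 and 5.67e-09). In E1KD cells the shift was 0.44 (adjusted p = 0.217), 0.45 (adjusted p = 0.0258) and 0.62 (adjusted p = 0.0046). The E1KD shift of 1422851_at was lost in 9 of 14 alternatives. The shift in E1KD less that in NMuMG cells was -2.06 (standard error 0.37, adjusted p = 0.00061), -1.63 (adjusted p = 2.51e-05) and -1.45 (adjusted p = 6.2e-05), so the difference between the lines passed at all 3.

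The relative Hmga2 signal changed in both pools of NMuMG cells, in comparisons added after the values had been seen. TGFβ changed 1450781_at by -1.49 in the monosomal pool (adjusted p = 2.72e-06) and by 1.01 in the polysomal pool (adjusted p = 0.000605), while total RNA did not change beyond its error. All 3 Hmga2 probe sets passed in both pools. Over the 13 probe sets, 7 were lower in the monosomal pool and 4 higher in the polysomal pool of treated NMuMG cells, beside 41.1% and 18.8% of all probe sets. In untreated cells the monosomal signal of 1450781_at was 8.54-fold lower in E1KD than in NMuMG cells (log2 difference -3.10, adjusted p = 2.17e-09). Of the 13, 6 were lower there, beside 33.4% of all.

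**Figure D2:**
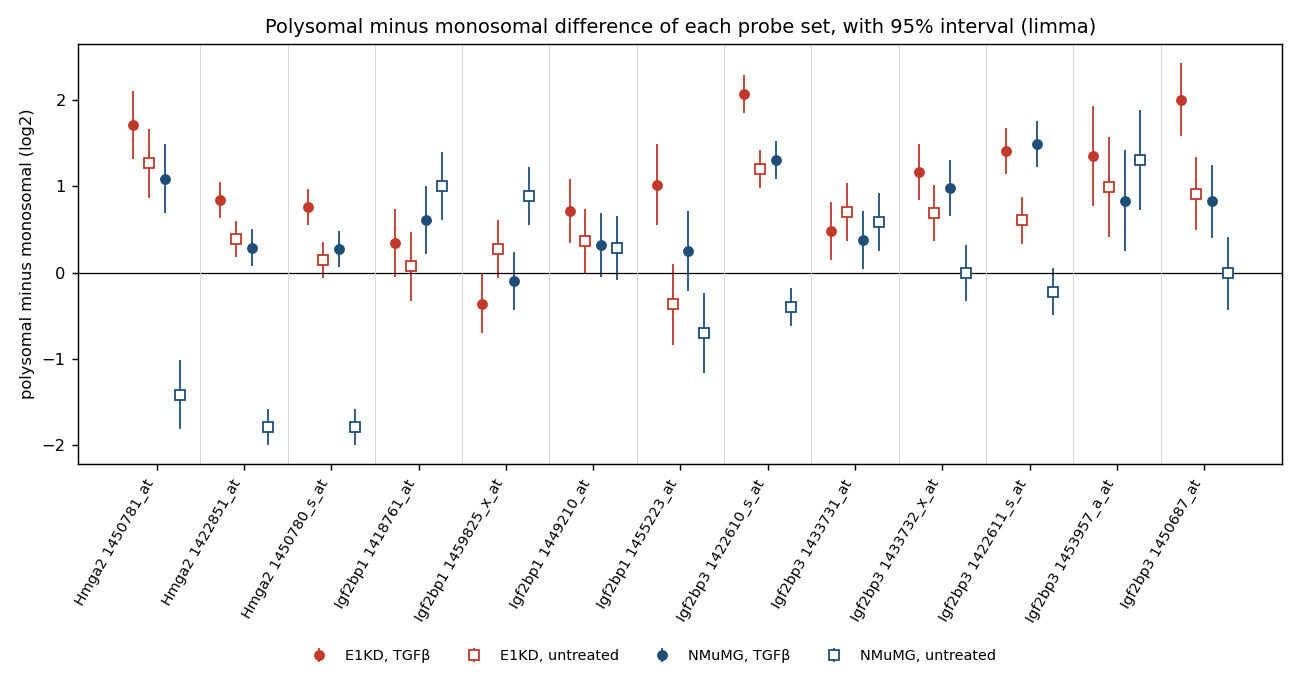
Polysomal minus monosomal log2 difference of the 13 tested probe sets, with 95% intervals from limma, in E1KD and NMuMG cells with and without TGFβ. The 3 Hmga2 probe sets are below 0 in untreated NMuMG cells alone, at -1.42, -1.79 and -1.80.

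These counts stand against a background in which many probe sets differed between pools, with a share that varied by condition. In untreated NMuMG cells 4 of the 13 were higher and 5 lower in the polysomal pool, beside 29.3% and 41.9% of all probe sets. With quantile normalization 8 were higher and 4 lower, beside 9035 and 8327 of all 25432 probe sets. Centring of the arrays on Actb and Gapdh gave 5 higher and 4 lower, beside 9688 and 9125 of all. In TGFβ-treated NMuMG cells 9 were higher and none lower, beside 27.6% and 22.1%. In untreated E1KD cells 8 were higher and none lower, beside 16.8% and 18.2%, and in TGFβ-treated E1KD cells 11 were higher and none lower, beside 34% and 26.6%. The shift was positive for 8 and negative for 1 in NMuMG cells (40.1% and 30.3% of all), and positive for 6 and negative for 1 in E1KD cells (20.9% and 7.73% of all). With quantile normalization the shift in NMuMG cells was positive for 7 and negative for 4, beside 8626 and 9209 of all. In E1KD less NMuMG cells 5 of the 13 were lower, beside 23.5% of all.

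The balance over all probe sets depended on the scaling. Of those that passed in untreated NMuMG cells, 41.2% were higher in the polysomal pool, against 52.0% after quantile normalization and 51.5% after the arrays had been centred on Actb and Gapdh. The same centring gave 73.9% in place of 55.5% in treated NMuMG cells, 67.1% in place of 56.1% in treated E1KD cells and 86.5% in place of 73.0% for the E1KD shift. Quantile normalization gave 52.7% for the E1KD shift and 48.1% in place of 35.8% for the shift in E1KD less NMuMG cells. It placed the median shift of all probe sets in NMuMG cells at -0.16, against 0.09 as deposited and 0.16 with centring. Centring also placed the median polysomal minus monosomal difference in treated NMuMG cells at 0.28, against 0.02 as deposited. In total RNA it gave 65.6% in place of 55.3% higher after TGFβ in NMuMG cells and 36.4% in place of 50.3% for E1KD less NMuMG. No Hmga2 difference between pools and no Hmga2 shift changed sign under either scaling.

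Igf2bp1, an RNA-binding protein known for the stabilization of Myc mRNA, was lower in E1KD cells by 2 of its 4 probe sets. In total RNA 1418761_at read 9.20 and 9.10 in TGFβ-treated E1KD cells and 8.85 and 8.86 in untreated E1KD cells. In NMuMG cells it read 9.68 and 9.85 with TGFβ and 9.73 and 9.85 without, so that the cell lines did not overlap. The untreated difference was -0.94 (standard error 0.19, adjusted p = 0.00101), and 1449210_at, from the same record, gave -0.90 (adjusted p = 0.00087). The other probe sets stood at -0.54 (1455223_at, adjusted p = 0.0834) and -0.12 (1459825_x_at, adjusted p = 0.687). With TGFβ the same 2 differed by -0.62 and -0.57 (adjusted p = 0.0206 and 0.0224), and each was lost in 3 of 10 alternatives. TGFβ differences of Igf2bp1 in total RNA passed at 1459825_x_at in E1KD cells only (-0.48, adjusted p = 0.0413), and this was lost in 5 of 10 alternatives.

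The probe sets of Igf2bp1 did not share 1 pattern between pools. In untreated NMuMG cells 1418761_at was higher in the polysomal pool by 1.00 (adjusted p = 0.000174), with 10.27 and 9.84 against 9.04 and 9.06 in the monosomal pool. With TGFβ it was higher by 0.61 (adjusted p = 0.0119), where 1 monosomal array read 9.16 and the other 9.95. Without either of these 2 arrays that difference was between 0.21 and 1.00. In E1KD cells the differences of 1418761_at were 0.34 with TGFβ and 0.07 without, and neither passed. In TGFβ-treated E1KD cells 1449210_at and 1455223_at were higher in the polysomal pool, by 0.715 and 1.02 (adjusted p = 0.00216 and 0.0008). There 1459825_x_at did not pass (-0.36, adjusted p = 0.0612). At 1455223_at the untreated NMuMG difference was -0.70 (adjusted p = 0.01) and the shift 1.39 in E1KD cells (adjusted p = 0.00457) and 0.95 in NMuMG cells (adjusted p = 0.0128). At 1459825_x_at the shift was -0.63 in E1KD cells (adjusted p = 0.0466) and -0.98 in NMuMG cells (adjusted p = 0.00112). No difference in shift between the lines passed at any of the 4, with 0.32 to 0.66 and the lowest adjusted p at 0.175. This depended on the processing at 1418761_at, which passed with quantile normalization (0.96, adjusted p = 0.00802) and was 1.06 without 1 treated NMuMG monosomal array. Its NMuMG shift of -0.40 (adjusted p = 0.187) became -1.01 with quantile normalization (adjusted p = 0.000141).

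Igf2bp3, the family member best known from fetal tissue and carcinomas, rose after TGFβ in E1KD total RNA by 2 of its 6 probe sets. Its probe set of highest mean, 1422610_s_at, read 10.09 and 10.01 in TGFβ-treated E1KD cells, against 9.61 and 9.66 in untreated E1KD cells. In NMuMG cells it read 9.76 and 9.90 with TGFβ and 9.88 and 9.80 without. The E1KD arrays were separate by treatment and the NMuMG arrays overlapped. In E1KD cells the TGFβ difference was 0.42 (standard error 0.10, adjusted p = 0.00845), and 1422611_s_at gave 0.46 (adjusted p = 0.0153). In E1KD less NMuMG cells the first difference was 0.42 and did not pass (adjusted p = 0.0766). In untreated total RNA 1433732_x_at was lower in E1KD cells, by -0.46 (adjusted p = 0.0303), and with TGFβ 1433731_at was, by -0.54 (adjusted p = 0.0175).

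Between pools 1422610_s_at resembled Hmga2 in part. It read 8.51 and 8.30 in the polysomal pool of TGFβ-treated NMuMG cells, against 7.11 and 7.09 in the monosomal pool. Untreated NMuMG cells gave 8.31 and 8.18 in the polysomal pool, against 8.60 and 8.70 in the monosomal pool. The pools changed order with TGFβ here as well. The untreated difference was -0.40 (adjusted p = 0.00258) and became 0.24 with quantile normalization (adjusted p = 0.024), so its sign depended on the scaling. In E1KD cells the polysomal pool was higher by 2.07 with TGFβ and by 1.20 without (adjusted p = 3.54e-10 and 3.65e-07). The other Igf2bp3 probe sets did not share the untreated NMuMG order of 1422610_s_at. There 1433731_at and 1453957_a_at were higher in the polysomal pool, by 0.585 and 1.31 (adjusted p = 0.00381 and 0.000509). Neither 1422611_s_at (-0.22) nor 1450687_at (-0.01) passed, nor did 1433732_x_at. With quantile normalization 1422611_s_at and 1433732_x_at passed as higher (0.32 and 0.64).

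The shift of 1422610_s_at was 0.88 in E1KD cells (adjusted p = 0.000819) and 1.71 in NMuMG cells (standard error 0.15 each, adjusted p = 6.1e-08). The difference of -0.84 between the lines passed (adjusted p = 0.00554), and 1422611_s_at, from the same record, gave -0.90 (adjusted p = 0.0119). With quantile normalization these 2 differences were lost. From that record too, 1450687_at shifted by 1.09 in E1KD and by 0.84 in NMuMG cells, with no difference between the lines that passed (adjusted p = 0.647). At 1433731_at and 1453957_a_at no shift passed in NMuMG cells, with -0.21 (adjusted p = 0.409) and -0.48 (adjusted p = 0.279). The half-widths of their 95% intervals were 0.48 and 0.82. With quantile normalization 1433731_at passed as negative (-0.93, adjusted p = 0.00112). Without 1 treated monosomal array 1453957_a_at was -0.89. From the record of 1433731_at, 1433732_x_at passed as positive in NMuMG cells (0.98, adjusted p = 0.000811), so probe sets of 1 record differed. Which transcripts each of the probe sets detects is not in the data. After TGFβ in NMuMG cells the monosomal signal of 1422610_s_at fell by 1.55 (adjusted p = 4.29e-09). Its polysomal difference of 0.16 did not pass (adjusted p = 0.274), and that of 1422611_s_at, 0.36, did (adjusted p = 0.0433).

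**Figure D3:**
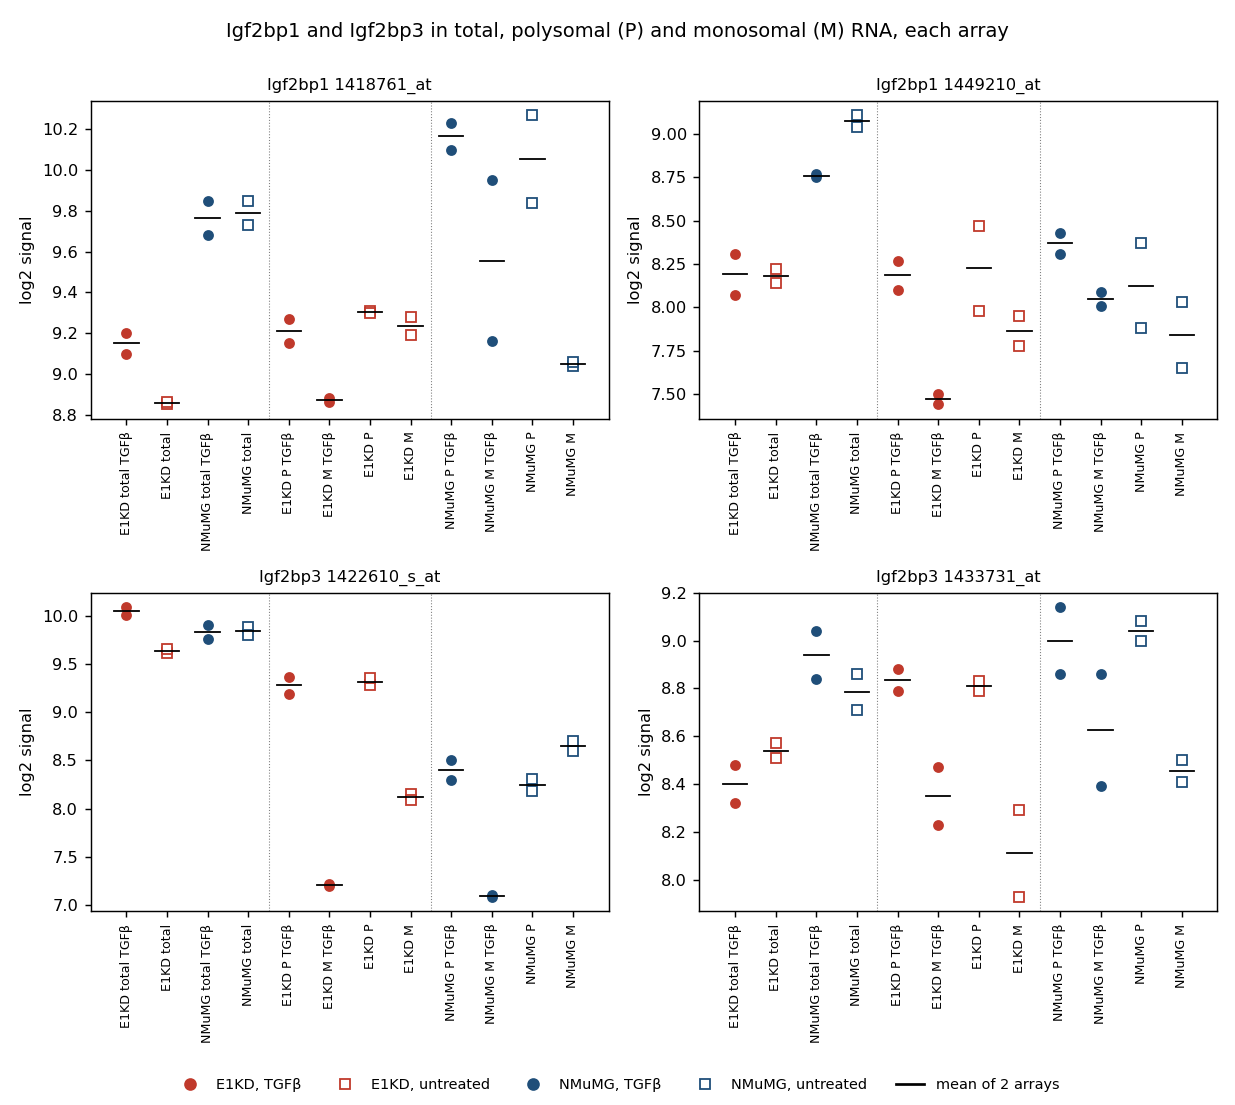
Log2 signal of 2 probe sets each of Igf2bp1 and Igf2bp3 in each of 24 arrays (1 point per array, black bars for the mean of 2). Total RNA of 1418761_at is lower in E1KD than in NMuMG cells, and the monosomal arrays of TGFβ-treated cells are the lowest at 1422610_s_at, between 7.09 and 7.22.

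The Lin28b probe set was between 3.0 and 4.11 in all 32 arrays, below 5.52 throughout, and was not tested. The highest of its values was 1 array of the untreated E1KD monosomal pool, whose other array read 3.40. Lin28a, the other LIN28 gene, had 2 probe sets, which read 3.53 to 4.82 in the 32 arrays. A low signal does not show that a transcript is absent, since the probes may bind poorly.

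The third question was whether α-hnRNP E1 retrieved these mRNAs from NMuMG cells beyond IgG, and whether TGFβ changed that. The labels of the 4 α-hnRNP E1 arrays conflict. By title and source name 14A and 13B are TGFβ-treated and 13A and 14B untreated, while the descriptions name TGFβ for 14A and 14B. As titled, Pearson's r between replicate arrays was 0.9865 for untreated and 0.9853 for TGFβ-treated α-hnRNP E1. For IgG it was 0.9978 untreated and 0.9965 with TGFβ. Whether the α-hnRNP E1 labels were exchanged was not tested. Over both treatments 1418761_at of Igf2bp1 read 10.25 to 10.36 with α-hnRNP E1, against 9.87 to 10.00 with IgG. At 1449210_at the 4 arrays read 9.16 to 9.34, against 8.84 to 8.93 with IgG. The antibodies did not overlap at either. The differences were 0.37 (standard error 0.08, adjusted p = 0.0127) and 0.40 (adjusted p = 0.00793), that is 1.29-fold and 1.32-fold. These 2 of the 13, from the same record, passed as higher, beside 14% of all probe sets. The first was lost in 3 of 15 alternatives. The other Igf2bp1 probe sets did not pass with groups as titled, at 0.18 (1455223_at, adjusted p = 0.135) and 0.005 (1459825_x_at, adjusted p = 0.988).

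For Hmga2 the α-hnRNP E1 minus IgG differences were 0.28 (adjusted p = 0.12), -0.06 (adjusted p = 0.73) and 0.12 (adjusted p = 0.455), with 95% interval half-widths of 0.24 to 0.27. At 1450781_at the α-hnRNP E1 arrays read 12.53 (13A), 12.73 (13B), 12.41 (14A) and 12.15 (14B), and the IgG arrays 12.39 and 12.40 with TGFβ and 12.02 and 11.89 without. With α-hnRNP E1, both arrays numbered 13 were above both numbered 14, and the groups as titled overlapped. For Igf2bp3 the lead probe set differed by 0.21 (adjusted p = 0.086). The groups by number leave these differences as they are but change the spread, and then Hmga2 1450781_at (adjusted p = 0.023), Igf2bp3 1422610_s_at (adjusted p = 0.0408) and Igf2bp1 1455223_at (0.18, adjusted p = 0.041) passed too.

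A TGFβ difference passed for none of the 13 probe sets in the IgG immunoprecipitate, where 0.00393% of all probe sets did, and for none with α-hnRNP E1 as titled, where 0% did. Before adjustment 1 passed with IgG, Hmga2 1450781_at (adjusted p = 0.709), and none with α-hnRNP E1. With IgG the Hmga2 differences were 0.44, 0.30 and 0.26. With α-hnRNP E1 they were 0.23, 0.10 and -0.02 as titled and -0.35, -0.31 and -0.25 with 14 taken as TGFβ and 13 as untreated, so the direction depended on the labels. By number 14.7% of all probe sets passed with α-hnRNP E1, and none of the 13 did. In a comparison added after the values had been seen, the TGFβ difference with α-hnRNP E1 less that with IgG was -0.79, -0.61 and -0.50 for Hmga2 by number (adjusted p = 0.011, 0.0124 and 0.0376, beside 17% of all probe sets). As titled it was -0.21, -0.20 and -0.28 (adjusted p = 0.997 each).

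**Figure D4:**
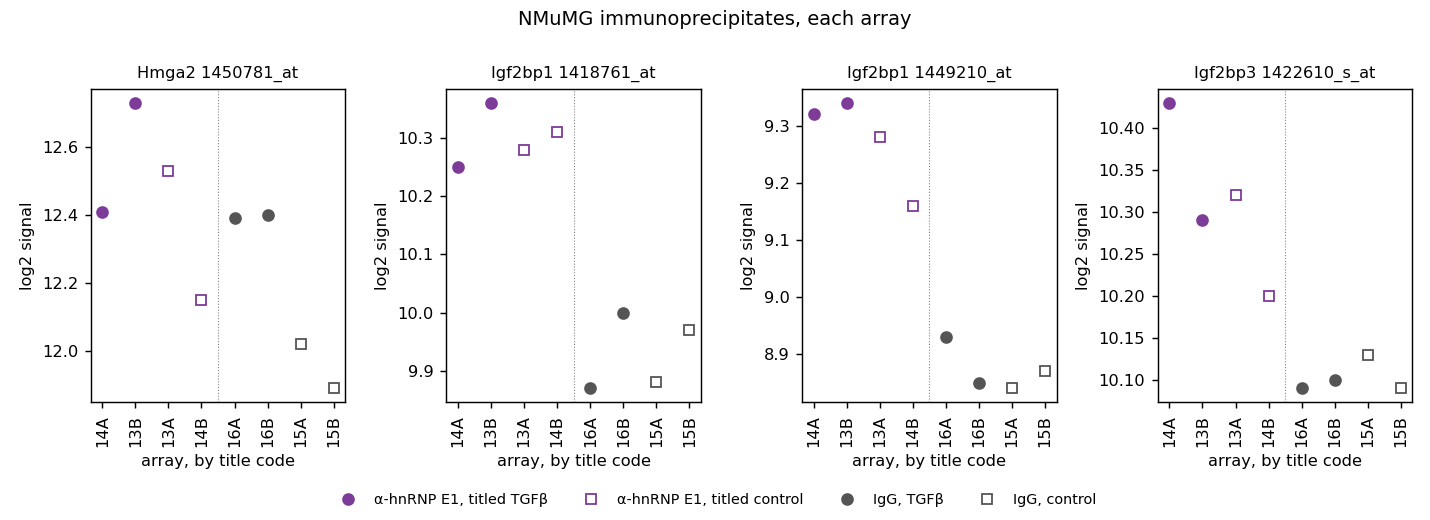
Log2 signal of 4 probe sets on the 8 arrays of NMuMG immunoprecipitates, by title code, with α-hnRNP E1 at the left of IgG. Both Igf2bp1 probe sets shown are higher in all 4 α-hnRNP E1 arrays, and at Hmga2 the arrays 13A and 13B lie above 14A and 14B. The other tested Igf2bp1 probe sets are not shown.

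Over the 12 conditions of total and ribosomal RNA, Hmga2 (1450781_at) was highest in untreated NMuMG total RNA (12.65 ± 0.06, SD, n = 2) and lowest in the TGFβ-treated E1KD monosomal pool (8.99 ± 0.06). Of the 11 neighbouring pairs in that order, 6 had arrays that overlapped and 5 did not. The ranks from 6 to 8, namely the untreated NMuMG polysomal pool, untreated E1KD total RNA and the treated NMuMG monosomal pool, overlapped with each other at 11.03 to 11.11. Igf2bp1 (1418761_at) ran between 10.16 ± 0.09 in the treated NMuMG polysomal pool and 8.86 ± 0.01 in untreated E1KD total RNA, with 8 of 11 neighbours overlapping. Igf2bp3 (1422610_s_at) ran between 10.05 ± 0.06 in treated E1KD total RNA and 7.10 ± 0.01 in the treated NMuMG monosomal pool, with 3 of 11 overlapping.

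The genes with the most similar course were found by Pearson's r over the 12 condition means, given as a description since conditions share cell lines and pools. Nearest to Hmga2 were Krt20 (r = 0.98), Jak2 (r = 0.98) and Stard4 (r = 0.97). Nearest to Igf2bp1 were Slx4 (0.91), Ttll4 (0.90) and Golph3l (0.89), and nearest to Igf2bp3 were Nsrp1 (0.99), Ppig (0.98) and Gtf2f1 (0.98). Between the lead probe sets of the genes themselves r was 0.46 for Hmga2 and Igf2bp1, 0.58 for Hmga2 and Igf2bp3 and -0.01 for Igf2bp1 and Igf2bp3. The pseudogene Hmga2-ps1 had r = 0.81 with Hmga2. Its own α-hnRNP E1 arrays read 9.74 and 9.75 for 13A and 13B and 8.57 and 8.58 for 14A and 14B, and how far its RNA adds to the Hmga2 probe sets was not tested.

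Genes of the same pathways were counted by the probe set of highest mean, over 12600 genes. In untreated total RNA of E1KD against NMuMG cells 17.8% of all genes were higher and 15.1% lower. Of 20 genes of let-7 biogenesis and turnover none was higher and 4 were lower, among them Trim71, an E3 ligase and let-7 target (-3.24, adjusted p = 4.88e-09), and Xpo5, the exporter of pre-microRNAs (-0.72, adjusted p = 0.00196). Of 25 let-7 targets 5 were higher and 9 lower. The transcription factor Mycn had the greatest change of these (4.2, adjusted p = 3.12e-14), and Tgfbr3, the TGFβ co-receptor betaglycan, changed by -2.46. Among 7 other high mobility group genes 1 was lower, Hmgb2, a DNA-bending protein (-1.90, adjusted p = 9.1e-08). Of 16 genes linked to HMGA2 in EMT and the cell cycle 4 were higher and 7 lower, with Zeb2, a repressor of Cdh1, at 1.66 and the inhibitor of differentiation Id2 at -2.03.

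After TGFβ in E1KD total RNA 11.7% of all genes were higher and 11.4% lower. All 7 other high mobility group genes passed, 5 as higher and 2 as lower, and with quantile normalization 1 was lower. Hmgb2 rose by 2.28 (adjusted p = 4.41e-08), its paralog Hmgb3 by 1.34 and the nucleosome-binding Hmgn5 by 1.20. Of the genes linked to HMGA2 5 were higher, among them Id2 (2.64) and the cyclins Ccna2 (2.10) and Ccnb2 (1.71), and 3 were lower, with Snai2 at -1.68. Of 19 IMP partner proteins 4 were higher and 1 lower, and the highest was the helicase Dhx9 (1.30).

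For the polysome shift of NMuMG cells 41.3% of all genes were higher and 33.8% lower. Of the IMP partner proteins 16 of 19 shifted up and 2 down, with Hnrnpu at 3.24 (adjusted p = 3.17e-08), Dhx9 at 2.90 and Hnrnpd at 2.52. Of the genes linked to HMGA2 12 of 16 shifted up and 2 down, with Zeb2 at 4.42 (adjusted p = 3.14e-08), Smad2 at 2.80 and Zeb1 at 2.68. Of 16 IMP target mRNAs 10 shifted up and 3 down, with Ptgs2 at 3.12, of 25 let-7 targets 14 and 4, with Rrm2 at 3.33, and of 20 let-7 biogenesis genes 11 and 2, with Dicer1 at 2.12 (adjusted p = 5.3e-05). Their medians were 1.44 for the IMP partners, 1.93 for the genes linked to HMGA2, 1.18, 0.74 and 0.92, beside 0.04 over all genes. With quantile normalization 7 let-7 biogenesis genes were higher and 4 lower, and 10 and 6 let-7 targets.

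In E1KD less NMuMG cells 15.3% of all genes had a higher and 24.7% a lower shift. None of the genes linked to HMGA2 was higher and 12 of 16 were lower, with a median of -1.27 beside -0.08 over all genes. Zeb2 differed by -3.80 (adjusted p = 5.04e-05), Smad2 by -2.58 and Zeb1 by -2.10. Of the IMP partners none was higher and 8 of 19 were lower, led by the helicase Upf1 (-2.20, adjusted p = 0.000267), and of the other high mobility group genes 4 of 7. With quantile normalization 2 of the genes linked to HMGA2, 1 IMP partner and 1 high mobility group gene were higher.

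In the immunoprecipitates 15.9% of all genes were higher with α-hnRNP E1 than with IgG and 10.9% lower. Of the IMP partners 9 of 19 were higher and 2 lower, with the RNA-binding protein Syncrip at 0.60 (adjusted p = 0.0049), Stau1 at 0.53 and Ddx1 at 0.53. Of the let-7 biogenesis genes 7 of 20 were higher, with Xpo5 at 0.62 (adjusted p = 0.00217), and 3 lower, with the uridylyl transferase Tut4 at -0.68 (adjusted p = 0.00459). Of the IMP target mRNAs 1 of 16 was higher, Myc (0.47, adjusted p = 0.00494), and 4 were lower, with Cd44 at -0.84 (adjusted p = 0.0164).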

How the data were processed

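RNA of E1KD and NMuMG cells was hybridized to Affymetrix mouse arrays. The deposited values are log2 signals to 2 decimals. The authors obtained them by RMA (Expression Console), and software versions are not given in the sources used here. The 45101 probe sets include 64 controls, which were left out. Array medians ran from 5.36 to 5.70, and no further normalization was applied. Detection calls (MAS5) were not used here, and a filter at the median took their place. Gene symbols came from GEO's platform annotation, which gave 1 symbol to 34945 probe sets, several to 932 and none to 9160. No genome was used, and microRNA sequences are RefSeq's (GRCm38).

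Groups were taken from titles and source names. The 24 arrays of total and ribosomal RNA were fitted together and the 8 immunoprecipitation arrays apart, in R 4.3.3 by a linear model per probe set with moderated variance (limma 3.58.1, 2-sided). Benjamini-Hochberg adjustment covered all 25432 probe sets. Intervals are 95% intervals from limma. Summaries and plots were made in Python 3.11.15 using matplotlib 3.10.9, pandas 2.3.3 and numpy 2.4.6. Precision is limited by there being 2 arrays in each condition. In simulated data with 200 changed probe sets, 20.9% of changes of 0.5 (log2), 73.1% of 1 and 100% of 2 were recovered for TGFβ in NMuMG total RNA. For the shift in NMuMG cells 1.49%, 53.7% and 83.3% were recovered, and for α-hnRNP E1 minus IgG 22.4%, 79.1% and 93.9%. In the data themselves 1382, 17894 and 6522 probe sets passed in these comparisons, in the same order. The adjustment depends on how many probe sets change, so the simulated rates need not hold there.

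All 15 probe sets with 1 symbol, for 4 of the 6 genes, were examined. Of each of 6 gene lists up to 4 genes of greatest absolute change past the threshold are eligible to be named, by the probe set of highest mean. Each gene with a tested probe set has its 3 nearest genes named. Pcbp1 was the check of the knockdown, and Lin28a, Hmga2-ps1 and Ptprc were named after their values had been seen. The genes and lists were chosen with earlier results of these data known. Alternatives were no filter, only the arrays compared (or all 32) in the fit, quantile normalization, centring on Actb and Gapdh, an intensity trend, a replicate block, leaving out each array, α-hnRNP E1 labels by title number and the median over a gene's probe sets.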

Additional observations from a re-analysis of the deposited data

Results flagged for a closer look

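Some differences between E1KD and NMuMG cells under the same contrast passed a test of the difference itself. The TGFβ difference of Hmga2 in total RNA was greater in E1KD than in NMuMG cells by 1.06 at 1450781_at, by 0.94 at 1422851_at and by 0.94 at 1450780_s_at (limma, adjusted p = 0.0147, 0.000299 and 0.000284). In both E1KD replicates the TGFβ-treated arrays lay above the untreated ones at all 3, and in NMuMG cells the differences were -0.14, 0.03 and -0.06.

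The polysome shift was smaller in E1KD than in NMuMG cells for Hmga2, by -2.06 at 1450781_at, -1.63 at 1422851_at and -1.45 at 1450780_s_at. It was likewise smaller for Igf2bp3, by -0.84 at 1422610_s_at and -0.90 at 1422611_s_at. At 1422610_s_at the shift was 0.88 in E1KD cells and 1.71 in NMuMG cells, and at 1422611_s_at 0.80 and 1.71. Mesenchymal markers moved with the cell line and their part in these differences was not tested. No condition had enough arrays for a test of single outlying values.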

How the results depend on the processing

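Of 81 member differences that passed, 52 stayed past the threshold under all alternatives run and 1 changed sign, that of Igf2bp3 1422610_s_at between pools of untreated NMuMG cells (0.24 with quantile normalization). Of 100 Igf2bp differences that had not passed, 38 changed sign under some alternative, 3 of them with a call, and 24 gained a call. With 14 taken as TGFβ and 13 as untreated in the α-hnRNP E1 arrays the TGFβ differences of Hmga2 1450781_at and 1422851_at became -0.35 and -0.31. Without single arrays, with groups as titled, 1422851_at in that comparison ran from -0.08 to 0.28 and 1450780_s_at from -0.20 to 0.16, and 1422851_at with α-hnRNP E1 minus IgG from -0.15 to 0.03.

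With only the arrays compared in the fit, 1 of 13 probe sets passed in place of 0 for TGFβ in NMuMG total RNA, 5 in place of 9 between pools of treated NMuMG cells and 4 in place of 7 for the E1KD shift. Over all probe sets the counts were 3931 in place of 1382, 7085 in place of 12649 and 6086 in place of 7289, in the same order. With labels by title number 5 of the 13 passed in place of 2 for α-hnRNP E1 minus IgG, beside 10725 in place of 6522 of all. Without single arrays the counts ran from 3 to 6 for TGFβ in E1KD total RNA (6 with all arrays), were 3 for E1KD minus NMuMG with TGFβ (6), ran from 5 to 10 between pools of treated NMuMG cells (9), from 4 to 6 for the E1KD shift (7) and from 1 to 3 for α-hnRNP E1 minus IgG (2). Counts over all probe sets without single arrays are not given here. The cause of these changes was not tested, save that fewer arrays give a less certain spread.

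Over all probe sets, only the arrays compared gave 3931 in place of 1382 for TGFβ in NMuMG total RNA, 8665 in place of 5385 in E1KD, 7340 in place of 2910 for their difference, 11698 in place of 7453 and 10542 in place of 6917 between the lines untreated and with TGFβ, and 7085 in place of 12649 between pools of treated NMuMG cells. Those labels gave 10725 in place of 6522 for α-hnRNP E1 minus IgG, 3737 in place of 0 for TGFβ with α-hnRNP E1 and 1483 in place of 1 with IgG, where all 32 arrays in 1 fit gave 31. Replicate numbers did not pair the 24 arrays of total and ribosomal RNA (66 correlations of -0.38 to 0.32, median 0.06). Among immunoprecipitates 6 correlations ran from -0.59 to 0.08. These cannot decide on pairing, since the α-hnRNP E1 replicates were taken by the conflicting labels. With a replicate block none of the 81 was lost, and 12 in place of 11 probe sets passed between pools of treated E1KD cells.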
